A study of Mus musculus with 12 samples.

Results

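The comparison described here sets 3T3-L1 adipocytes exposed to 5 µM berberine for 12 h against the same cells given the solvent DMSO. Its members were chosen by their labels alone: the 3 arrays labelled berberine 12 h (replicates 1 to 3) and the 3 arrays labelled DMSO (replicates 1 to 3), which are 6 of the 12 arrays of the series. The other 6 arrays hold the same dose at 3 h and at 6 h, with 3 arrays each. 3T3-L1 is an established mouse embryonic fibroblast line that becomes fat-storing adipocytes after a hormonal stimulus. All groups had been induced for 48 h with insulin at 5 µg/ml, dexamethasone at 1 µM and IBMX, a phosphodiesterase inhibitor, at 0.5 mM, and were used 8 to 10 days into differentiation. All groups also spent 12 h in DMEM with 0.2% albumin before treatment. The length of the DMSO exposure is not given in the sources used here, so berberine and time in culture cannot be told apart in this comparison. The labels number the replicates without saying whether they are separate cultures, so a p-value here reflects how these samples vary among themselves, possibly for technical reasons alone.

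Berberine is a plant alkaloid that is known to inhibit complex I of the mitochondrial respiratory chain and to lead to activation of the energy sensor AMPK. Cells that sense mitochondrial, endoplasmic reticulum or amino acid stress phosphorylate the translation factor eIF2α, which slows bulk translation and raises the transcription factor ATF4. ATF4 in turn drives genes of amino acid transport and tRNA charging, and this pathway is called the integrated stress response. Another pathway, tied to oxygen, runs through the hypoxia-inducible factors (HIF), which switch on glycolytic and glycogen genes when oxygen in the cell is low and are degraded when it is plentiful.

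RNA was hybridised to Affymetrix MOE430 2.0 arrays, and the values are log2 MAS5 signals, on which a difference of 1 is a 2-fold change. Of 18193 genes named on the array, 12136 were tested, each through 1 probe set, after a filter on dim signals at 5.77 on the log2 scale. Arrays of the same group correlated at 0.968 to 0.976 and arrays of different groups at 0.956 to 0.974 across genes, which are not independent replicates. The number of arrays limits the precision. The adipocyte label fits the mature adipocyte markers: all 16 tested had means above the dim threshold in DMSO, and 15 at 12 h. Of 13 fibroblast and preadipocyte markers on the array, 11 also had means at or above it in each group. The log2 of their summed signal was 17.08 to 17.28 in DMSO, against 17.76 to 18.06 for the mature adipocyte markers. Of 10 macrophage markers 4 had means at or above the threshold in each group, while Ptprc, Itgam, Mrc1, Tyrobp and Fcer1g were under it in both. The endothelial markers Cdh5, Tek, Tie1, Vwf, Emcn and Erg were also under the threshold in both groups. The log2 of the summed signal of smooth muscle markers ran from 12.46 to 13.03 in DMSO and from 13.10 to 13.35 at 12 h. Its part in the results was not tested. The 100 brightest genes had array medians of 14.66, 14.70 and 14.90 in DMSO and 14.94, 14.98 and 14.84 at 12 h, and 50 of these 100 were called higher and 1 lower. The part of this brightness shift in results on very bright genes was not tested.

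At 12 h 3426 of 12136 genes (28.2%) passed limma's test at an adjusted p under 0.05, of which 1660 (13.7%) were higher and 1766 (14.6%) lower than in DMSO. The 3 and 3 arrays did not overlap for 4780 genes (39.4%), 2322 with all treated arrays higher (19.1%) and 2458 with all lower (20.3%), and 3277 of them were also called. A change of at least 1 on the log2 scale was called for 303 genes (2.5%), with 117 higher (0.964%) and 186 lower (1.53%). The median change over all genes tested was -0.01. Calls were more frequent among brighter genes. With the genes split by brightness into 3 groups of similar size, 108 were called higher and 213 lower in the dimmest group. The middle group had 580 and 700, and the brightest group 972 and 853. The gene lists below were not matched for brightness, so setting their shares against 28.2% does not allow for this. The 15 largest rises with both means above the threshold include Atf3, Trib3 and Ddit3 of the stress response and Ifit3 of the interferon response. The 15 largest falls include Ankrd37 and Egln3 of oxygen sensing and Pck1 and Hcar2 of fat cell metabolism.

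**Figure D1:**
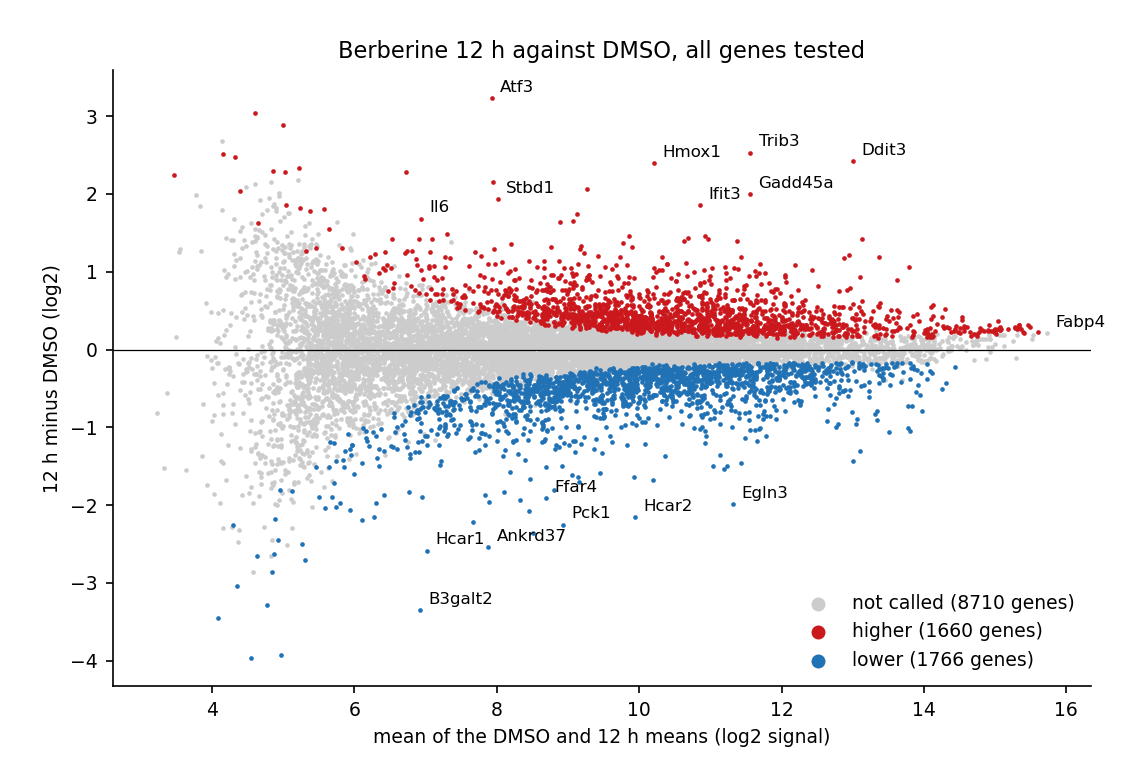
Each point is 1 of the 12136 genes tested, with the mean log2 signal of the DMSO and 12 h groups on the horizontal axis and the 12 h minus DMSO difference (log2) on the vertical axis; red genes were called higher and blue genes lower (limma, adjusted p under 0.05). Atf3 stands at 3.23 and Ddit3 at 2.42, while Pck1 stands at -2.25 and Ankrd37 at -2.54.

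**Figure D2:**
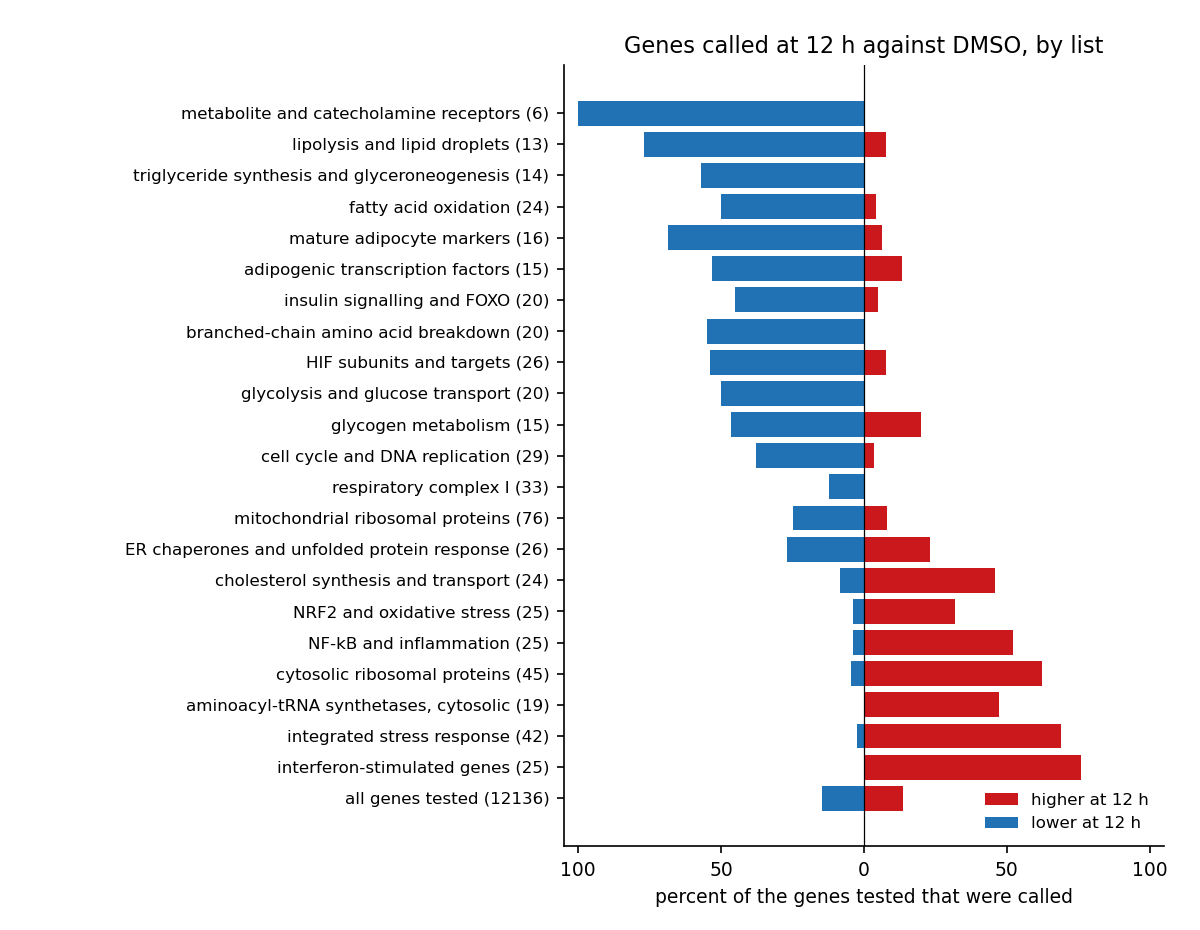
Bars give the percent of the tested genes of each list (their number in brackets) that were called higher (right, red) or lower (left, blue) at 12 h against DMSO. Interferon-stimulated and integrated stress response genes lie mainly to the right. Metabolite and catecholamine receptors and lipid droplet genes lie mainly to the left. Over all genes tested 13.7% were called higher and 14.6% lower, and the lists were not matched for brightness.

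Of 42 integrated stress response genes tested, 29 were called higher and 1 lower at 12 h, with a median change of 0.54 on the log2 scale. Atf4, the central transcription factor, read 12.46, 12.41 and 12.38 in the DMSO arrays and 13.81, 13.90 and 13.82 at 12 h. It rose by 1.43 ± 0.07 (SE), or 2.69-fold, with a limma adjusted p of 1.62e-10. All 3 treated arrays lay above all 3 DMSO arrays, with a gap far wider than the SDs of 0.04 and 0.05.

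Ddit3, which encodes the transcription factor CHOP, read 11.80, 11.81 and 11.78 in DMSO and 14.17, 14.27 and 14.19 at 12 h. This was a 5.34-fold rise (limma adjusted p = 2.23e-14), and the groups were far apart. Trib3, a pseudokinase that binds AKT, went from 10.55, 10.30 and 10.03 to 12.77, 12.88 and 12.83, a 5.78-fold rise (limma adjusted p = 1.55e-11). Atf3, a stress-induced transcription factor, had the largest rise among genes above the dim threshold in both groups, from 6.54, 6.63 and 5.77 to 9.37, 9.55 and 9.71. Its change was 3.23 ± 0.21 (SE) on the log2 scale, or 9.38-fold, with a limma adjusted p of 9.62e-09. The DMSO arrays of Atf3 and Trib3 spread more than the treated ones, yet neither gene's groups overlapped.

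Ppp1r15a encodes GADD34, the phosphatase subunit that reverses eIF2α phosphorylation. It read 8.56, 8.11 and 8.12 in DMSO and 9.95, 10.09 and 9.97 at 12 h, a 3.33-fold rise (limma adjusted p = 3.44e-08). Slc7a11, the cystine importer, read 5.92, 5.35 and 5.49 in DMSO, where its mean was under the dim threshold, and 7.60, 8.23 and 7.77 at 12 h. Its rise was at least 4.13-fold (limma adjusted p = 1.14e-05). For such a bound the brighter group's mean is divided by the dim threshold, or by the dim arrays' own signal where that is higher.

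Among further members, Slc7a5 and Slc3a2, the subunits of a large neutral amino acid exchanger, rose 2.17-fold and 2.06-fold (limma adjusted p = 1.55e-08 and 7.79e-07). Mthfd2, a mitochondrial folate enzyme, rose 2.01-fold, Nupr1, a stress-inducible chromatin protein, 1.86-fold, and Asns, asparagine synthetase, 1.70-fold, with limma adjusted p-values of 3.54e-08, 4.3e-09 and 2.87e-06. Chac1, which degrades glutathione, read 9.95, 9.80 and 9.78 in DMSO and 10.83, 10.99 and 10.99 at 12 h, a 2.13-fold rise (limma adjusted p = 5.9e-08). Ddit4, an mTORC1 inhibitor also known as REDD1, was the member that fell, from 12.37, 11.63 and 12.21 to 11.09, 11.03 and 10.99 (2.04-fold, limma adjusted p = 1.84e-05). Its DMSO replicate 2 stood below the other DMSO arrays and still above all 3 treated arrays.

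**Figure D3:**
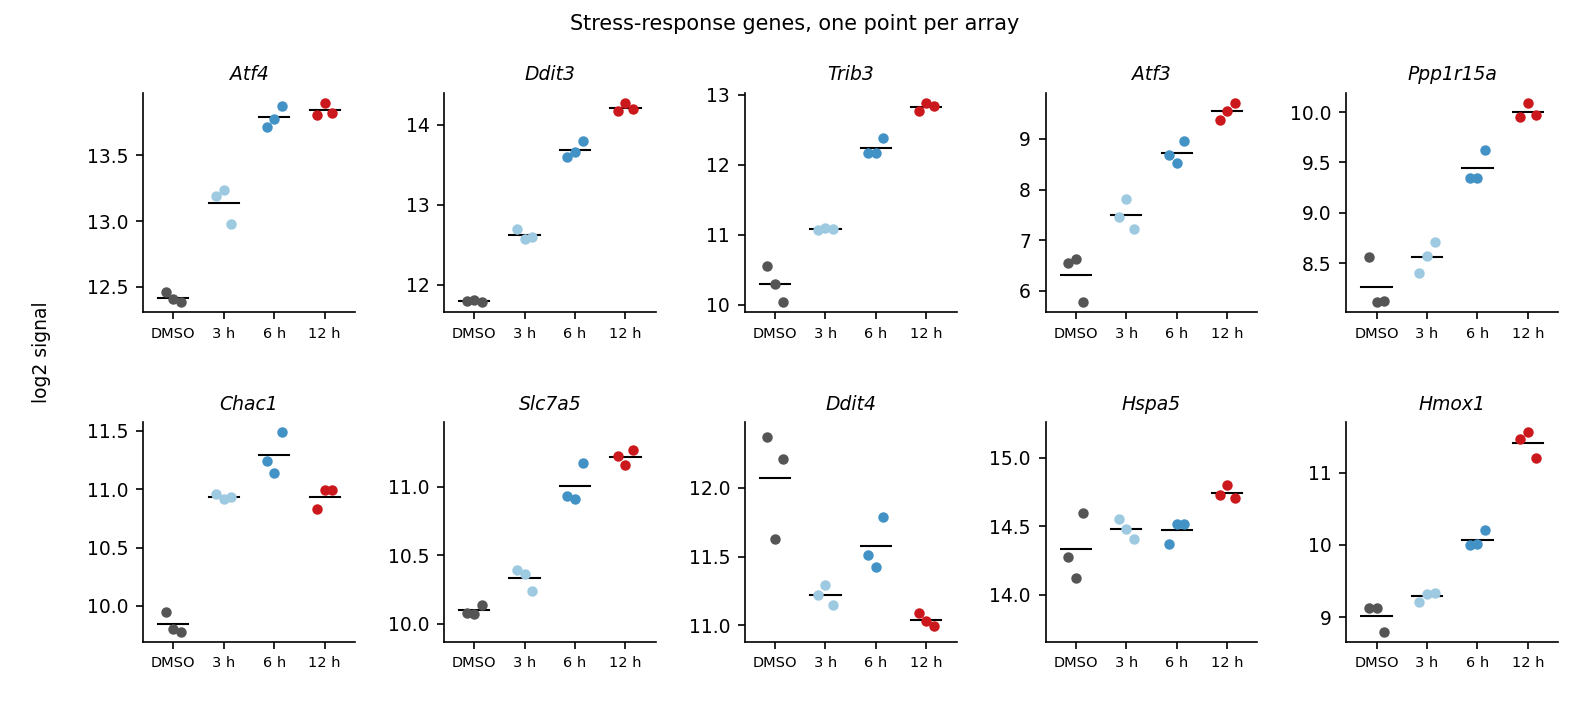
Log2 signal of 10 stress genes, 1 point per array, for DMSO and for berberine at 3 h, 6 h and 12 h; black lines are means of 3 arrays. For Ddit3, Trib3, Atf3 and Hmox1 all 12 h points lie above all DMSO points, and for Ddit4 they lie below.

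A promoter element of the stress response was looked up because these genes moved together. The C/EBP-ATF response element is written TGATGNAAN, and it was searched on both strands in the 250 bases upstream of RefSeq start sites (GRCm38.p6). It was present in 223 of 9806 tested genes with a promoter sequence (2.27%). Among integrated stress response genes it was present in 8 of 23 that were called higher and in 0 of 11 that were not called. A match is a description of the letters and not evidence of binding. Stretches around the matches of 6 genes that rose are shown in the direction of transcription, with the element on either strand in capitals.
Atf3 (chr1:191183411-191183469, minus strand): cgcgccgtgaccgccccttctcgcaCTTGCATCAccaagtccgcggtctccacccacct
Chac1 (chr2:119351023-119351081, plus strand): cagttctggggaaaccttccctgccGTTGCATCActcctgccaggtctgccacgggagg
Asns (chr6:7693210-7693257, minus strand): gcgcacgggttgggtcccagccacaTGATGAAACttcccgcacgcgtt
Slc7a11 (chr3:50443628-50443686, minus strand): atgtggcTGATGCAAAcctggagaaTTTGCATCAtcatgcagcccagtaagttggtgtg
Nupr1 (chr7:126625548-126625606, minus strand): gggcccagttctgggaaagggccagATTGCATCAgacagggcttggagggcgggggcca
Herpud1 (chr8:94386291-94386349, plus strand): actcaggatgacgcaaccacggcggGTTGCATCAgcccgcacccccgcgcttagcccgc

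Slc7a11 held 2 copies in opposite orientations, while each of the other stretches held 1. Atf4, Ddit3 and Trib3, which rose strongly, held none in this window.

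Cytosolic aminoacyl-tRNA synthetases, which load amino acids onto tRNAs, moved one way: 9 of 19 tested were called higher and 0 lower, with a median change of 0.29. Cars, for cysteine, rose 1.83-fold, Aars, for alanine, 1.59-fold, and Sars, for serine, 1.55-fold (limma adjusted p = 2.03e-05, 4.23e-06 and 8.74e-07). Aars read 11.73, 11.48 and 11.51 in DMSO and 12.23, 12.16 and 12.33 at 12 h, without overlap. Of the mitochondrial synthetases 1 of 15 was called higher and 3 lower, a share of 26.7%, against 28.2% of all genes tested. Among those lower, Cars2 fell from 8.39, 8.55 and 8.40 to 7.74, 7.62 and 7.81 (1.65-fold, limma adjusted p = 0.000608). Averaging the Cars2 probe sets ended that call (limma adjusted p = 0.0519). The C/EBP-ATF element was present upstream of 3 of 6 cytosolic synthetases that were called higher and 0 of 6 not called, and the 3 are shown because their promoters differ around the shared element.
Aars (chr8:111033704-111033762, plus strand): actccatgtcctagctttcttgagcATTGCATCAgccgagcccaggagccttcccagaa
Gars (chr6:55037945-55038000, plus strand): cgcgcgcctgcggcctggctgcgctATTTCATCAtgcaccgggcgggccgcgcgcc
Tars (chr15:11399659-11399699, minus strand): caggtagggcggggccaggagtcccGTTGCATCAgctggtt

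Tars, for threonine, rose 1.47-fold and Gars, for glycine, 1.32-fold (limma adjusted p = 1.32e-05 and 8.86e-05).

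Endoplasmic reticulum chaperones and unfolded protein response genes split: 6 of 26 tested were called higher and 7 lower, with a median change of -0.10. Hspa5, which encodes the main lumenal chaperone BiP, read 14.28, 14.12 and 14.60 in DMSO and 14.73, 14.80 and 14.71 at 12 h, a 1.33-fold rise (limma adjusted p = 0.0019). Its DMSO arrays spread more than the treated ones and all lay below them. Herpud1, a component of endoplasmic reticulum degradation, rose 1.79-fold and Edem1, which extracts misfolded glycoproteins, 1.93-fold (limma adjusted p = 2.46e-07 and 1.48e-07). By contrast Dnajb9, a BiP co-chaperone, fell from 13.04, 13.07 and 13.11 to 12.49, 12.50 and 12.37 (1.54-fold, limma adjusted p = 4.65e-07). Creld2, a secreted stress protein, fell 1.55-fold (limma adjusted p = 1.97e-05). Xbp1, the transcription factor activated by IRE1, changed by -0.14 and Hsp90b1, which encodes GRP94, by -0.07, and neither was called (limma adjusted p = 0.133 and 0.403), though averaging the Xbp1 probe sets gave a call (0.0201).

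Chaperones of other compartments were also split. Of 14 mitochondrial chaperones and proteases 4 were called higher and 2 lower. Hspa9, the mitochondrial HSP70, rose 1.46-fold and Dnaja3, its co-chaperone, 1.29-fold, while Oma1, the protease that relays mitochondrial stress, fell 1.41-fold (limma adjusted p = 2.19e-05, 0.000324 and 0.0012). The chaperonin pair Hspd1 and Hspe1 changed by 0.15 and 0.17 and was not called (limma adjusted p = 0.138 and 0.0604), though both were called higher without DMSO replicate 3 (0.00616 and 0.0255) and Hspe1 also without 12 h replicate 3 (0.0161). Of 14 cytosolic heat shock genes 3 were called higher and 3 lower. Hspa4l, an HSP110-type chaperone, rose 1.67-fold and Hspb8, a small heat shock protein, 1.45-fold (limma adjusted p = 0.00042 and 0.000755), with the Hspa4l call lost on averaging its probe sets (0.13). Hspa1b and Hsph1, both inducible by heat, fell 1.25-fold and 1.37-fold (limma adjusted p = 0.000901 and 0.00233).

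Antioxidant genes controlled by the transcription factor NRF2 were called higher in 8 of 25 cases and lower in 1, with a median change of 0.17. The share called was 36%, against 28.2% of all genes tested. Hmox1, the heme-degrading heme oxygenase, read 9.13, 9.12 and 8.80 in DMSO and 11.46, 11.56 and 11.20 at 12 h. Its 5.24-fold rise (limma adjusted p = 1.19e-10) left a wide gap between the groups. Gclm, a subunit of the enzyme that limits glutathione synthesis, rose 1.44-fold, and Nfe2l2, which encodes NRF2 itself, 1.5-fold (limma adjusted p = 2.13e-05 and 4.72e-06). Nqo1, a quinone reductase often used as an NRF2 readout, read 9.26, 9.20 and 9.0 in DMSO and 9.32, 8.91 and 9.08 at 12 h, with overlapping groups (change -0.05, limma adjusted p = 0.805).

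Growth arrest genes were mixed, with 6 of 18 called higher and 3 lower. Gadd45a, a stress-induced growth arrest gene, rose from 10.72, 10.55 and 10.42 to 12.49, 12.56 and 12.62 (3.98-fold, limma adjusted p = 1.55e-11). Its relative Gadd45g fell from 9.78, 9.81 and 10.28 to 8.48, 8.25 and 8.23 (3.11-fold, limma adjusted p = 5.47e-08). The pair therefore moved in opposite directions without any overlap of arrays. Plk2, a stress-responsive kinase, rose 2.12-fold and Mdm2, the p53 ubiquitin ligase, 1.21-fold, whereas Cdkn1a, the p53 target p21, was not called (limma adjusted p = 2.82e-05, 0.00169 and 0.2). Without 12 h replicate 1 Cdkn1a was called lower (limma adjusted p = 0.0478). Of 13 BCL2 family members tested 2 were called higher and 1 lower (23.1% called, against 28.2% of all genes tested). Mcl1, which protects from apoptosis, rose 1.25-fold, and Bad, which promotes it, fell 1.42-fold (limma adjusted p = 0.00431 and 0.00671). The Mcl1 call was lost on averaging its probe sets (limma adjusted p = 0.0943) and the Bad call in a model without moderation (0.0537).

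Interferon-stimulated genes were called higher in 19 of 25 cases and lower in 0, with a median change of 0.85. Ifit3, one of a family of antiviral RNA-binding proteins, read 10.08, 9.50 and 10.19 in DMSO and 11.55, 12.26 and 11.54 at 12 h. It rose by 1.86 ± 0.25 (SE), or 3.62-fold, with a limma adjusted p of 2.68e-05. Replicate 2 was the lowest DMSO array and the highest treated array, and the groups did not overlap.

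The related Ifit1 rose 2.75-fold and Ifit2 2.50-fold (limma adjusted p = 0.000183 and 5.04e-06). Rsad2, which encodes the antiviral enzyme viperin, read 8.45, 7.46 and 8.82 in DMSO and 9.76, 10.28 and 9.66 at 12 h, a 3.15-fold rise (limma adjusted p = 0.00111). Herc6, the mouse ligase for ISG15, rose 3.10-fold, Oasl2, an oligoadenylate synthetase-like protein, 2.30-fold, and Irf9, the DNA-binding part of the interferon transcription complex, 1.81-fold (limma adjusted p = 7.28e-06, 0.00138 and 0.000268). Irf7, the amplifying transcription factor of the pathway, overlapped between groups and was not called, with a change of 0.02 (limma adjusted p = 0.956). In Rsad2, as in Ifit3, DMSO replicate 2 was the lowest of its group and 12 h replicate 2 the highest.

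The interferon-response letters, GAAA followed after any 2 bases by GAAA, searched on both strands in the same windows, were present in 3.10% of tested genes with a promoter. They were present in 9 of 17 interferon-stimulated genes that were called higher and in 1 of 4 that were not called. The stretches of 4 genes that rose are shown because they differ in how many copies they carry, in capitals and on either strand.
Ifit1 (chr19:34640779-34640838, plus strand): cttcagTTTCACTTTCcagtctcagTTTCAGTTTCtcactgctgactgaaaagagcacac
Ifit3 (chr19:34583373-34583441, plus strand): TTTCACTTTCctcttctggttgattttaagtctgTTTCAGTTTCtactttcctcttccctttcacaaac
Rsad2 (chr12:26456538-26456597, minus strand): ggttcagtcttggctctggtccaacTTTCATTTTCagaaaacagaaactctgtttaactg
Oas1a (chr5:120907526-120907564, minus strand): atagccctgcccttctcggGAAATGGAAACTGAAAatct

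Ifit1 and Ifit3 carried 2 separate copies, Oas1a 2 overlapping copies and Rsad2 1. Oas1a, an antiviral nucleotide polymerase, rose 2.19-fold (limma adjusted p = 0.00164).

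Inflammatory genes of the NF-kB pathway were called higher in 13 of 25 cases and lower in 1, with a median change of 0.40. Il6, an inflammatory cytokine, read 6.10, 6.29 and 5.88 in DMSO and 7.77, 7.69 and 7.86 at 12 h, a 3.21-fold rise (limma adjusted p = 1.07e-05). The DMSO arrays stood just above the dim threshold. Among chemokines, Cxcl1 rose 2.13-fold, Ccl5 1.69-fold and Ccl2 1.52-fold (limma adjusted p = 6.03e-06, 0.00272 and 0.000726). Ccl2 at 12 h replicate 3, at 11.61, was close to the highest DMSO array, at 11.58. Ptgs2, which encodes the prostaglandin enzyme COX-2, rose 2.39-fold (limma adjusted p = 0.00128). Nfkbia, the inhibitor of NF-kB, fell 1.18-fold (limma adjusted p = 0.0372), a call that was lost without DMSO replicate 3 (0.175) and without 12 h replicates 1 and 3 (0.0876 and 0.112). The Nfkbia call was also lost without the intensity trend (0.115) and without moderation (0.123). The macrophage marker Cd14 rose 1.30-fold (limma adjusted p = 0.00761). The log2 of the summed signal of the macrophage list was 9.84 to 10.09 in DMSO and 9.99 to 10.30 at 12 h. Its part in the inflammatory result was not tested. Letters like those bound by NF-kB, GGG followed after any 2 bases by TTTCC, were present in 1.79% of tested genes with a promoter. They were present in 3 of 7 NF-kB list genes called higher, in 1 of 1 called lower and in 3 of 9 not called.

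Oxygen-sensing genes moved the other way. Of 26 HIF subunits and targets tested, 14 were called lower and 2 higher, with a median change of -0.34. Ankrd37, a HIF target whose function is little known, had the largest fall among genes above the dim threshold in both groups, from 9.28, 8.93 and 9.25 to 6.45, 6.68 and 6.69. The fall was 5.83-fold (limma adjusted p = 3.95e-07). Egln3, a HIF prolyl hydroxylase that HIF itself induces, fell from 12.43, 12.00 and 12.51 to 10.33, 10.42 and 10.22 (3.97-fold, limma adjusted p = 1.3e-09). Neither gene's treated arrays came near the DMSO arrays.

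The related hydroxylase Egln1 fell 2.59-fold, Ak4, a mitochondrial adenylate kinase, 2.82-fold, and Pdk1, which blocks pyruvate entry into mitochondria, 2.01-fold (limma adjusted p = 2.16e-06, 3.02e-06 and 1.34e-07). The members that rose were Hif1a, the oxygen-regulated subunit, and Ero1a, an endoplasmic reticulum oxidase that CHOP also induces. Hif1a read 12.56, 12.52 and 12.66 in DMSO and 13.08, 13.13 and 13.17 at 12 h, a 1.46-fold rise (limma adjusted p = 2.89e-06). Ero1a read 12.97, 12.53 and 12.83 in DMSO and 13.91, 14.03 and 13.95 at 12 h, a 2.28-fold rise (limma adjusted p = 2.26e-07). The transcript of the HIF subunit thus rose while most of the listed targets that were called fell. Vegfa, the endothelial growth factor, overlapped between groups and was not called (limma adjusted p = 0.369).

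The core letters of a hypoxia response element, ACGTG, were searched in the same way and are common, being present in 24.9% of tested genes with a promoter. They were present in 11 of 14 HIF list genes that were called lower, in 2 of 2 called higher and in 3 of 7 not called. The stretches of 5 genes that fell are shown, with the core and its reverse complement in capitals, so that a palindromic match has 6 capitals.
Ankrd37 (chr8:45999851-45999881, minus strand): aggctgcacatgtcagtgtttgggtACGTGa
Egln3 (chr12:54204074-54204124, minus strand): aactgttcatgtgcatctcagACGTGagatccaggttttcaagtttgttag
Ak4 (chr4:101419465-101419519, plus strand): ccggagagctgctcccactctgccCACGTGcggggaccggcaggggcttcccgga
Egln1 (chr8:124949293-124949347, minus strand): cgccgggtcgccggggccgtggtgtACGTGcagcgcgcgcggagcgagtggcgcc
Ppp1r3c (chr19:36736678-36736732, minus strand): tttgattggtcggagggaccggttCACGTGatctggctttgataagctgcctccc

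Glycolysis and glucose transport genes were called lower in 10 of 20 cases and higher in 0, with a median change of -0.27. Pfkl, the liver form of phosphofructokinase, fell 2.30-fold, Hk2, the insulin-responsive hexokinase, 1.86-fold, and Pkm, pyruvate kinase, 1.68-fold (limma adjusted p = 1.33e-06, 1.16e-06 and 5.43e-06). Ldha, which makes lactate, fell from 14.39, 14.20 and 14.52 to 13.55, 13.62 and 13.58 (1.73-fold, limma adjusted p = 1.09e-06). Slc2a1, the basal glucose transporter GLUT1, fell 1.32-fold from 12.25, 12.05 and 12.11 to 11.87, 11.57 and 11.77 (limma adjusted p = 0.00107). Pfkp, the platelet form of phosphofructokinase, overlapped between groups and was not called, with a change of 0.03 (limma adjusted p = 0.84). The ACGTG letters were present upstream of 6 of 9 of the glycolysis genes called lower and of 6 of 10 not called.

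Glycogen genes included large changes in both directions, with 7 of 15 called lower and 3 higher and a median change of -0.35. Of the phosphatase subunits that target glycogen, Ppp1r3c, Ppp1r3b and Ppp1r3d, fell 2.47-fold, 2.51-fold and 2.32-fold (limma adjusted p = 9.75e-10, 8.28e-08 and 3.1e-08). Ppp1r3c read 13.78, 13.60 and 13.89 in DMSO and 12.46, 12.41 and 12.50 at 12 h. Gys1, glycogen synthase, fell from 10.52, 10.26 and 10.51 to 9.48, 9.65 and 9.54 (1.83-fold, limma adjusted p = 2.31e-06). Stbd1, a receptor that brings glycogen to the lysosome, rose instead from 7.18, 7.0 and 6.98 to 8.98, 9.02 and 8.95 (3.81-fold, limma adjusted p = 2.42e-07). In each of these genes the groups were separated without overlap.

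**Figure D4:**
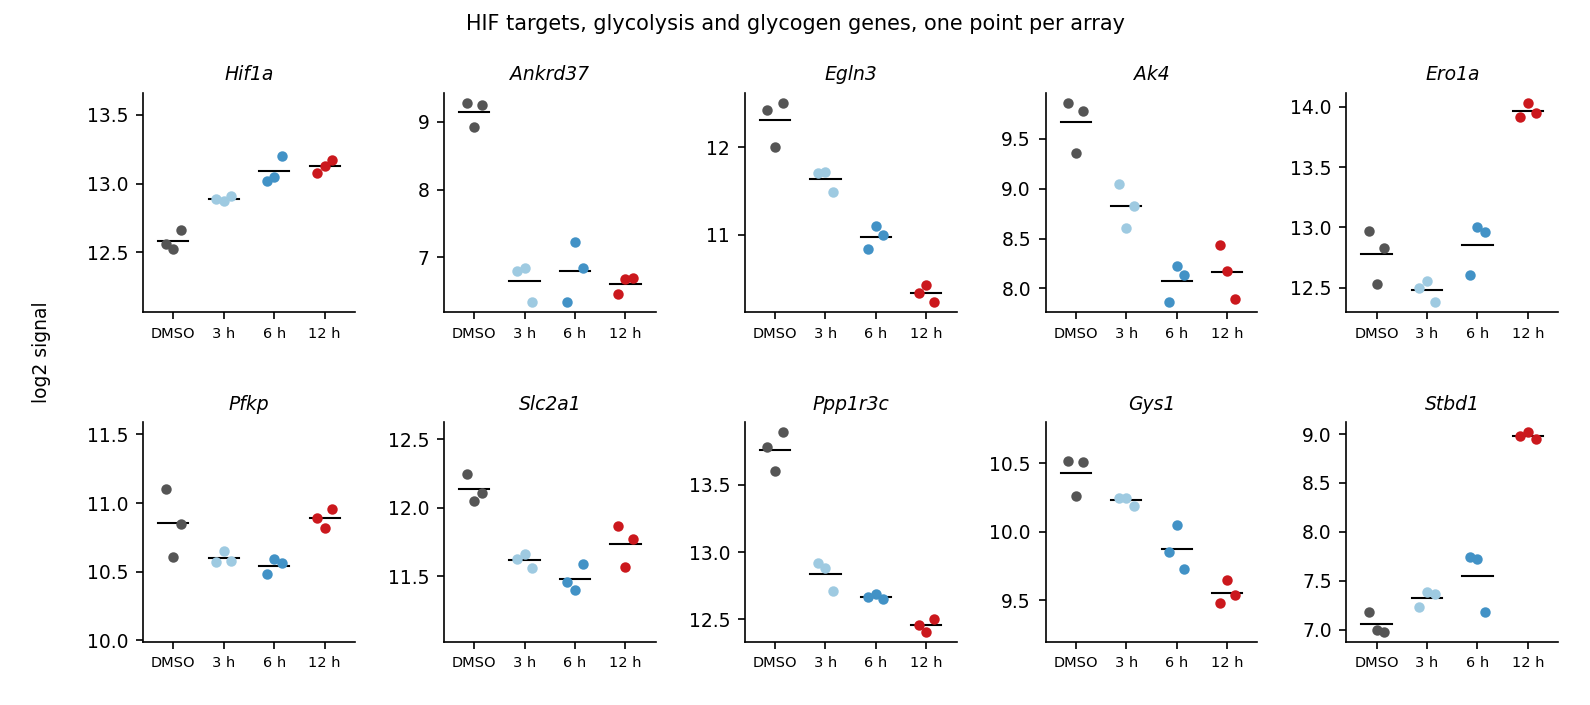
Log2 signal of 10 HIF target, glycolysis and glycogen genes, 1 point per array, for DMSO and for berberine at 3 h, 6 h and 12 h; black lines are means of 3 arrays. Ankrd37, Egln3, Ppp1r3c and Gys1 lie lower at 12 h than in DMSO, Hif1a, Ero1a and Stbd1 higher, and Pfkp overlaps DMSO.

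Transcripts of the respiratory chain changed little by size. Of 33 complex I subunits tested, 0 were called higher and 4 lower, with a median change of -0.06. The share called was 12.1%, against 28.2% of all genes tested. Ndufb3, an accessory subunit, fell from 13.42, 13.28 and 13.44 to 12.93, 13.00 and 12.86 (1.37-fold, limma adjusted p = 3.97e-05), and Ndufb6 fell 1.24-fold (limma adjusted p = 0.001). Ndufs1, the largest core subunit, read 12.95, 12.94 and 13.04 in DMSO and 12.67, 12.79 and 12.94 at 12 h and was not called (limma adjusted p = 0.0642), though it was without 12 h replicate 3 (0.0142). Of 39 subunits of complexes II to V, 1 was called higher and 6 lower (17.9% called), with a median change of 0.01. Sdhd, a membrane anchor of complex II, fell 1.36-fold (limma adjusted p = 2.62e-05). Quantile normalization called 8 complex I genes and 13 of the other complexes lower.

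Of 76 mitochondrial ribosomal proteins tested, 6 were called higher and 19 lower, with a median change of -0.04. The share called was 32.9%, against 28.2% of all genes tested, without matching for brightness. Mrpl34, of the large subunit, fell from 11.37, 11.37 and 11.35 to 10.73, 10.36 and 10.56 (1.75-fold, limma adjusted p = 4.95e-06), but not when its probe sets were averaged (limma adjusted p = 0.117). Among 37 mitochondrial carriers 10 were called higher and 7 lower. Slc25a33, a pyrimidine nucleotide carrier, rose 1.93-fold, and Slc25a34, an orphan carrier, fell 2.85-fold from 9.78, 9.09 and 9.48 to 7.88, 8.10 and 7.85 (limma adjusted p = 1.93e-08 and 3.31e-06). Of 17 genes of mitochondrial biogenesis and dynamics 4 were called higher and 3 lower. Ppargc1a, the coactivator PGC-1α that drives mitochondrial biogenesis, rose from 8.43, 8.27 and 8.24 to 9.19, 9.59 and 9.57 (2.20-fold, limma adjusted p = 2.21e-06). Tfam, the mitochondrial DNA packaging factor, overlapped between groups and was not called (limma adjusted p = 0.661). In the tricarboxylic acid cycle and pyruvate list 2 of 26 were called higher and 4 lower (23.1%, against 28.2% of all genes). Got1, the cytosolic aspartate aminotransferase, rose 2.10-fold and Pcx, pyruvate carboxylase, fell 1.34-fold (limma adjusted p = 1.62e-06 and 0.000117).

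In the list of metabolite and catecholamine receptors all 6 genes tested were called lower, with a median change of -1.61. The list has 14 members, of which 9 were named on the array, and it also holds the natriuretic peptide receptor Npr3. Hcar2, the receptor for ketone bodies and niacin, read 11.05, 10.89 and 11.12 in DMSO and 8.64, 8.95 and 9.0 at 12 h, a 4.45-fold fall (limma adjusted p = 1.62e-10). Its lactate-sensing neighbour Hcar1 read 8.29, 8.10 and 8.55 in DMSO and 6.23, 5.25 and 5.71 at 12 h, where its mean was under the dim threshold, a fall of at least 5.25-fold (limma adjusted p = 2.26e-06). For both receptors the groups were far apart.

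Ffar4, the receptor for long-chain fatty acids GPR120, fell from 9.80, 9.36 and 9.77 to 7.68, 7.86 and 7.65 (3.77-fold, limma adjusted p = 3e-08). Sucnr1, the succinate receptor, fell 2.46-fold, and Npr3, which clears natriuretic peptides, 1.32-fold (limma adjusted p = 1.15e-06 and 0.00748). The Npr3 call was lost when its probe sets were averaged (limma adjusted p = 0.262). Hcar1 and Hcar2 are neighbouring genes of similar sequence, and cross-hybridisation between their probe sets was not tested.

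Lipid droplet and lipolysis genes were called lower in 10 of 13 cases and higher in 1, with a median change of -0.52. Cidec, a droplet protein that enlarges droplets in fat cells, fell from 13.76, 13.59 and 13.81 to 12.20, 12.40 and 12.26 (2.70-fold, limma adjusted p = 1.62e-10). Mgll, which cleaves the last fatty acid from the glyceride, fell from 9.25, 8.87 and 9.20 to 7.74, 7.83 and 7.5 (2.67-fold, limma adjusted p = 4.11e-06). G0s2, an inhibitor of the first lipase of the pathway, fell 2.06-fold, and Lipe, hormone-sensitive lipase, 1.84-fold (limma adjusted p = 4.71e-08 and 7.09e-07). Pnpla2, that first lipase, fell 1.28-fold (limma adjusted p = 0.000466), a call lost on averaging its probe sets (0.693). Genes that promote and genes that restrain fat breakdown thus fell together.

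Triglyceride synthesis and glyceroneogenesis genes were called lower in 8 of 14 cases and higher in 0, with a median change of -0.34. Pck1, the enzyme that supplies glycerol for fat re-esterification in adipocytes, read 10.18, 9.78 and 10.20 in DMSO and 7.83, 7.46 and 8.12 at 12 h. Its fall was 2.25 ± 0.16 (SE) in size, or 4.76-fold, with a limma adjusted p of 1.75e-08. The groups were separated by more than 1 log2 unit. Dgat2, which makes triglyceride, fell 1.59-fold, Agpat2, an enzyme of an earlier step, 1.44-fold, and Aqp7, the glycerol channel, 1.94-fold (limma adjusted p = 0.000121, 1.56e-05 and 0.00179). Gpd1, which makes glycerol 3-phosphate, fell 1.87-fold (limma adjusted p = 2.63e-07), though not on averaging its probe sets (0.404).

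Fatty acid oxidation genes were called lower in 12 of 24 cases and higher in 1, with a median change of -0.22. Crat, carnitine acetyltransferase, fell 1.77-fold and Slc25a20, which carries acylcarnitines into mitochondria, 1.43-fold (limma adjusted p = 9.3e-07 and 9.49e-05). Cpt1a, the entry enzyme, read 9.06, 8.94 and 8.94 in DMSO and 8.81, 9.02 and 9.06 at 12 h and was not called (limma adjusted p = 0.959). Acot2, a mitochondrial acyl-CoA thioesterase, was the member that rose, from 10.85, 10.67 and 10.49 to 11.97, 12.26 and 11.98 (2.64-fold, limma adjusted p = 1.31e-07). Of the genes named here that were called, those for carnitine carriage and acetyl transfer were lower and the one for hydrolysis higher.

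Fatty acid synthesis genes split, with 5 of 17 called higher and 4 lower. Pnpla3, a lipid droplet protein under SREBP control, fell from 12.05, 11.78 and 12.06 to 10.40, 10.47 and 10.41 (2.90-fold, limma adjusted p = 2.39e-10). Fasn, fatty acid synthase, fell 1.72-fold and Srebf1, the transcription factor SREBP-1, 1.67-fold (limma adjusted p = 8.26e-06 and 2.66e-07). Elovl6, an elongase, rose instead from 8.44, 8.25 and 8.44 to 8.93, 9.10 and 9.03 (1.56-fold, limma adjusted p = 0.000454). Acaca, acetyl-CoA carboxylase, overlapped and was not called (limma adjusted p = 0.746).

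In the list on fatty acid uptake 4 of 14 genes were called higher and 2 lower. The acyl-CoA synthetases Acsl4 and Acsl3, which activate fatty acids, rose 2.09-fold and 2.02-fold (limma adjusted p = 1.07e-06 and 4.51e-08), with Acsl4 at 10.81, 10.63 and 10.60 in DMSO and at 11.57, 11.74 and 11.93 at 12 h. Angptl4, a secreted inhibitor of lipoprotein lipase, fell from 12.27, 12.19 and 12.26 to 11.08, 11.03 and 11.07 (2.27-fold, limma adjusted p = 1.45e-08). Cd36, the fatty acid translocase, overlapped between groups and was not called (limma adjusted p = 0.869), but it was called lower under quantile normalization (-0.12, adjusted p = 0.0388) and on averaging its probe sets (-0.42, adjusted p = 6.14e-05).

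Cholesterol synthesis and transport genes leaned the other way, with 11 of 24 called higher and 2 lower and a median change of 0.07. Idi1, an isomerase of the mevalonate pathway, rose from 12.85, 12.36 and 12.72 to 13.53, 13.51 and 13.67 (1.91-fold, limma adjusted p = 2.64e-06). Cyp51, the lanosterol demethylase, rose from 11.42, 11.02 and 11.46 to 12.03, 12.19 and 12.19 (1.79-fold, limma adjusted p = 2.75e-06). Tm7sf2, a sterol reductase, fell 1.44-fold (limma adjusted p = 0.00046). Sc5d, a sterol desaturase, and Lss, lanosterol synthase, rose 1.65-fold and 1.49-fold (limma adjusted p = 1.73e-05 and 5.16e-05), but neither call held on averaging probe sets (0.854 and 0.459).

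**Figure D5:**
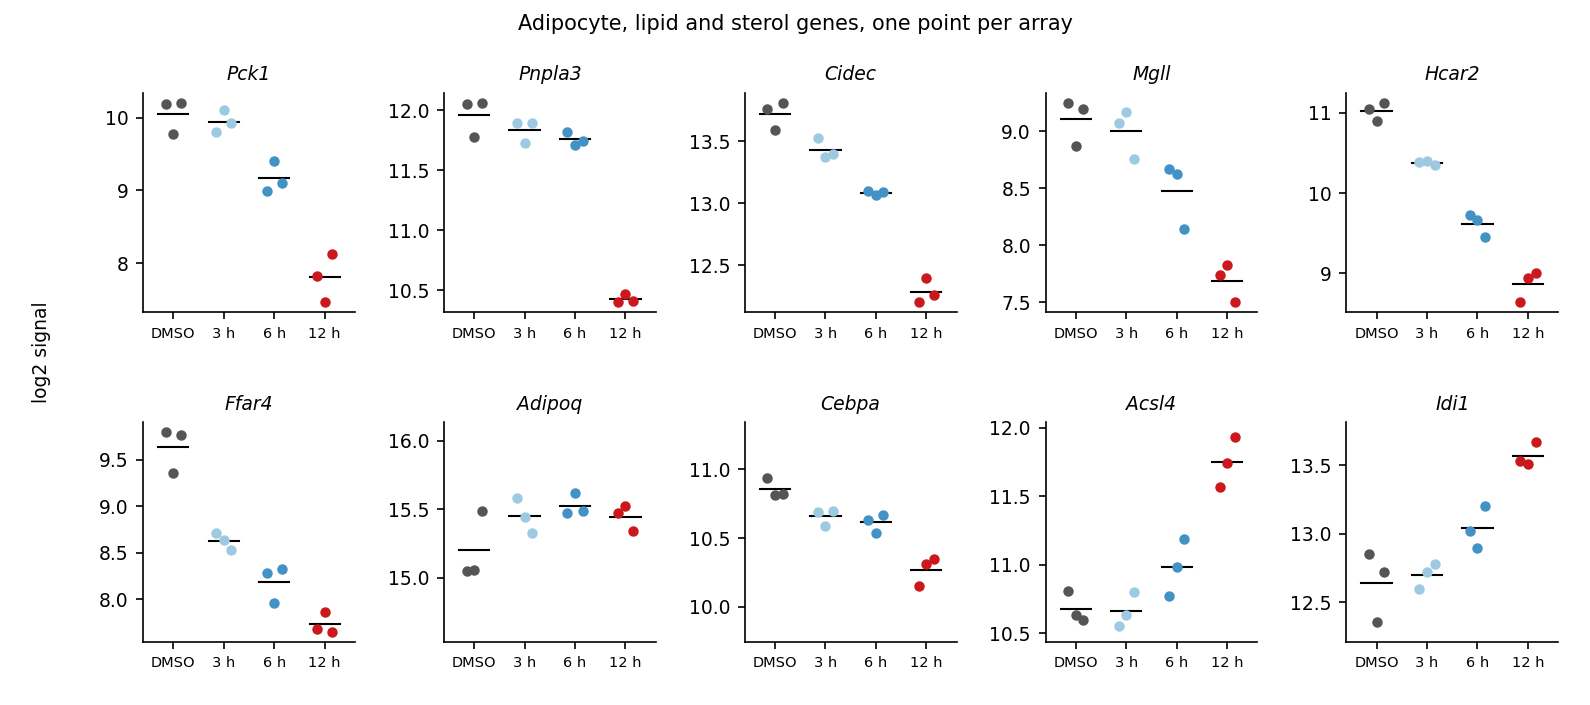
Log2 signal of 10 adipocyte, lipid and sterol genes, 1 point per array, for DMSO and for berberine at 3 h, 6 h and 12 h; black lines are means of 3 arrays. Pck1, Pnpla3, Cidec, Mgll, Hcar2, Ffar4 and Cebpa lie lower at 12 h than in DMSO, Acsl4 and Idi1 higher, and Adipoq overlaps.

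Mature adipocyte markers were called lower in 11 of 16 cases and higher in 1, with a median change of -0.52. Quantile normalization called 12 lower and 0 higher. Under it Lpl, lipoprotein lipase, the member called higher, was not called (limma adjusted p = 0.0983). In bulk RNA fewer cells of a type and less RNA per cell cannot be told apart. The very bright Adipoq, the hormone adiponectin, read 15.05, 15.06 and 15.49 in DMSO and 15.47, 15.52 and 15.34 at 12 h, so the groups overlapped. It was not called (limma adjusted p = 0.0736), though it was called higher without DMSO replicate 3 (0.000978). Fabp4, the fatty acid binding protein aP2, read 15.55, 15.47 and 15.83 in DMSO and 15.88, 15.87 and 15.75 at 12 h and was not called either (limma adjusted p = 0.0604), except without DMSO replicate 3 (0.00162) or 12 h replicate 3 (0.0451). For both genes DMSO replicates 1 and 2 were the lower ones, as in the medians of the 100 brightest genes. Of the 3 further Fabp4 probe sets, 2 that are dimmer were called lower, with changes of -1.10 and -0.89 on the log2 scale (limma adjusted p = 0.000617 and 0.00123).

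Car3, an abundant adipocyte carbonic anhydrase, fell from 14.38, 14.16 and 14.28 to 13.23, 13.18 and 13.40 (2.00-fold, limma adjusted p = 3.05e-08). Retn, the hormone resistin, fell 1.42-fold from 14.40, 14.37 and 14.75 to 13.99, 14.17 and 13.85 (limma adjusted p = 0.00182). Slc2a4, the insulin-regulated glucose transporter GLUT4, was called 1.24-fold lower (limma adjusted p = 0.0396) with overlapping groups. Its call was lost without DMSO replicate 1 (limma adjusted p = 0.144) or 3 (0.131) and without 12 h replicate 1 (0.142) or 2 (0.16). The Slc2a4 call was also lost without the intensity trend (0.112) and without moderation (0.133). Lep, the hormone leptin, read 7.07, 6.90 and 6.95 in DMSO and 5.95, 6.19 and 2.61 at 12 h, where its mean was under the dim threshold. Its fall was at least 2.00-fold (limma adjusted p = 0.0227), and the call was lost without DMSO replicate 1 (0.0662) or replicate 3 (0.0521). The Lep call was also lost without the intensity trend (0.083), without moderation (0.119) and with only the 6 arrays of the comparison (0.0629). Replicate 3 at 12 h was far dimmer than the others, and without it the change of Lep was -0.90 in place of -2.06.

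Adipogenic transcription factors were called lower in 8 of 15 cases and higher in 2, with a median change of -0.30. Pparg, the master regulator of fat cell formation, read 13.08, 12.98 and 13.07 in DMSO and 12.89, 12.95 and 13.03 at 12 h and was not called (change -0.08, limma adjusted p = 0.411). Its partner Cebpa fell from 10.94, 10.81 and 10.82 to 10.15, 10.31 and 10.35 (1.5-fold, limma adjusted p = 1.4e-05). Klf15, a later factor that drives lipid genes, fell 1.85-fold and Tle3, a PPARγ coregulator, 1.79-fold (limma adjusted p = 4.22e-06 and 2.07e-05). Klf5, an early adipogenic factor, rose 2.06-fold (limma adjusted p = 0.00144), but not on averaging its probe sets (0.0806). Of 5 brown and beige adipocyte markers tested 0 were called higher and 1 lower, and Ucp1, the uncoupling protein that defines brown fat, was under the dim threshold. Fibroblast and preadipocyte markers were called higher in 2 of 11 cases and lower in 3. The 2 called higher, Vim and Col1a2, were not called under quantile normalization (limma adjusted p = 0.467 and 0.51). Dlk1, a preadipocyte marker, overlapped between groups and was not called (limma adjusted p = 0.244), though it was called lower without DMSO replicate 3 (0.0445).

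Secreted factors of fat tissue were called lower in 7 of 16 cases and higher in 2. Inhbb, an activin subunit, fell from 9.69, 9.60 and 9.84 to 8.06, 7.78 and 7.87 (3.49-fold, limma adjusted p = 9.62e-09). Igf1, the growth factor, fell 1.86-fold and Nrg4, a ligand secreted by fat cells, 1.78-fold (limma adjusted p = 0.000213 and 0.000466). None of these 3 genes overlapped between groups.

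Insulin signalling genes were called lower in 9 of 20 cases and higher in 1, with a median change of -0.29. Irs1 and Irs2, the adaptor proteins of the insulin receptor, fell 1.80-fold and 1.97-fold (limma adjusted p = 2.04e-05 and 0.000112). Irs1 read 12.14, 12.01 and 12.49 in DMSO and 11.22, 11.45 and 11.42 at 12 h, and Irs2 read 9.27, 9.04 and 9.10 against 8.29, 8.14 and 8.06. Grb14, which inhibits the receptor, was the member called higher (1.49-fold, limma adjusted p = 0.000172), and the receptor Insr itself was not called (limma adjusted p = 0.0974), though it was without DMSO replicate 1 (0.0265). Caveolar coat genes Cavin1 and Cavin2 fell 1.85-fold and 1.94-fold (limma adjusted p = 2.08e-09 and 7.24e-09), with 3 of 6 caveolar genes called lower and 0 higher. Cav1, the main caveolin, overlapped and was not called (limma adjusted p = 0.684), but quantile normalization called it lower (0.00452).

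Breakdown of branched-chain amino acids, a carbon source of fat cells, had 11 of 20 genes called lower and 0 higher, with a median change of -0.23. Acad8, of the valine branch, fell from 9.71, 9.70 and 9.64 to 9.21, 9.13 and 9.27 (1.39-fold, limma adjusted p = 0.000885), and Pcca, of the shared propionyl step, fell 1.39-fold (limma adjusted p = 0.00315). Bckdha, a subunit of the committed enzyme, was not called, with a change of 0.00 (limma adjusted p = 0.992).

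Transcripts of AMPK and its upstream kinases mostly missed the test, with 1 of 13 called higher and 1 lower (15.4% called, against 28.2% of all genes tested). Both calls, Prkab1 higher and Prkag2 lower, were lost without the filter on dim probe sets (limma adjusted p = 0.0621 and 0.0551). Prkaa1, a catalytic subunit, read 9.97, 10.30 and 9.44 in DMSO and 10.18, 10.27 and 10.24 at 12 h (limma adjusted p = 0.104), and it was called higher without DMSO replicate 2 (0.00469). Activity of the kinase was not measured. Of the folliculin, RAG and mTORC1 list 4 of 17 were called higher and 1 lower (29.4%, against 28.2% of all genes tested). Among them Fnip1, a folliculin partner that binds AMPK, rose 1.59-fold (limma adjusted p = 0.000124). In the list on autophagy and lysosomes 9 of 29 were called higher and 3 lower (41.4% called). Sqstm1, the cargo receptor p62, rose from 11.60, 11.63 and 11.49 to 12.43, 12.55 and 12.61 (1.94-fold, limma adjusted p = 2.69e-08), and Gabarapl1, of the autophagosome, rose 1.83-fold (limma adjusted p = 1.11e-06). Both kept their treated arrays clear of DMSO.

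Feedback genes of the ERK kinase pathway had 4 of 11 called lower and 1 higher. Spry4, an inhibitor of receptor tyrosine kinase signalling, fell from 9.43, 9.30 and 9.15 to 7.23, 7.36 and 7.49 (3.81-fold, limma adjusted p = 9.01e-08). The phosphatases Dusp6 and Dusp4, which switch off ERK, fell 2.69-fold and 2.29-fold (limma adjusted p = 0.000164 and 5.94e-06). Immediate early genes had 4 of 22 called higher and 5 lower, with Egr1, a growth factor-induced factor, 1.72-fold lower and Jund, an AP-1 subunit, 1.67-fold higher (limma adjusted p = 0.000306 and 2.46e-05). Fos, another AP-1 subunit, did not overlap between groups but was not called (change -0.60, limma adjusted p = 0.0721).

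Clock genes were called higher in 5 of 19 cases and lower in 1 (31.6% called, against 28.2% of all genes tested). Dbp, an output factor of the clock, rose from 10.21, 10.43 and 9.96 to 11.58, 11.59 and 11.81 (2.76-fold, limma adjusted p = 1.09e-08). Nr1d2, the repressor REV-ERBβ, rose from 10.76, 10.88 and 10.87 to 12.00, 12.04 and 12.05 (2.29-fold, limma adjusted p = 2.39e-10). Arntl, the clock activator BMAL1, was not called, with a change of 0.00 (limma adjusted p = 0.999). Since the duration of the DMSO treatment is not given, clock phase and berberine cannot be told apart here.

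Cell cycle and replication genes were called lower in 11 of 29 cases and higher in 1, with a median change of -0.21. Ccne2, a cyclin of entry into S phase, fell from 9.73, 9.62 and 9.57 to 8.63, 8.44 and 8.86 (1.99-fold, limma adjusted p = 4.22e-06). Cdc6, which loads the replicative helicase, fell 2.01-fold, and Rrm2, of deoxynucleotide synthesis, 1.5-fold (limma adjusted p = 0.00276 and 2.01e-05). Ccnd1 and Pcna, a cyclin and the replication clamp, were not called (limma adjusted p = 0.268 and 0.786). Targets of bone morphogenetic protein signalling, the inhibitory Smad6 and the differentiation inhibitor Id1, fell 2.34-fold and 1.99-fold (limma adjusted p = 1.73e-05 and 1.99e-08), within a TGF-beta, BMP and WNT list of 21 genes with 2 called higher and 7 lower. Id4, a relative of Id1, rose 1.69-fold (limma adjusted p = 0.00195). Matrix and protease genes had 7 of 30 called higher and 3 lower (33.3% called, against 28.2% of all genes tested). The matrix metalloproteinases Mmp3 and Mmp2 were 1.47-fold and 1.29-fold higher (limma adjusted p = 0.00241 and 0.00175).

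Cytosolic ribosomal proteins were called higher in 28 of 45 cases and lower in 2, with a median change of 0.23. This count depends on the scaling, since quantile normalization called 8 higher and 2 lower with a median of 0.05. Of the 45 genes, 31 are among the 100 brightest, where DMSO replicates 1 and 2 read lower than the treated arrays. Rps25, a small subunit protein, rose from 9.32, 9.21 and 9.20 to 9.62, 9.88 and 9.71 (1.41-fold, limma adjusted p = 0.00123). Rps20 fell from 8.13, 8.38 and 7.98 to 7.63, 7.41 and 7.58 (1.54-fold, limma adjusted p = 0.00858), while another of its probe sets was called higher. Translation factors had 18 of 45 called higher and 3 lower, 17 and 5 under quantile normalization, with Eif3a, the largest subunit of initiation factor 3, 1.42-fold higher (limma adjusted p = 0.000458).

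Splicing factors had 9 of 45 called higher and 14 lower. Srsf2, a serine- and arginine-rich splicing factor, fell from 12.22, 12.11 and 12.25 to 11.12, 11.19 and 11.21 (2.03-fold, limma adjusted p = 4.71e-08). Srsf3 and Srsf6 of the same family fell 1.72-fold and 1.56-fold (limma adjusted p = 8.41e-06 and 8.74e-07). Host transcripts of small nucleolar RNAs had 6 of 14 called higher and 0 lower, with Snhg1 rising 1.34-fold (limma adjusted p = 0.000218). The calls of Snhg16, Snhg5 and Gas5 were lost on averaging their probe sets (limma adjusted p = 0.422, 0.113 and 0.102). The proteasome had 7 of 38 called higher and 3 lower (26.3% called, against 28.2% of all genes tested). Psmb9, an interferon-inducible subunit, rose 1.70-fold (limma adjusted p = 0.000418).

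Smaller lists were divided. Of 16 sphingolipid synthesis genes 4 were called higher and 2 lower (37.5% called, against 28.2% of all genes tested). Sgms1, a sphingomyelin synthase, was 1.66-fold higher and Cers4, a ceramide synthase, 1.51-fold lower (limma adjusted p = 4.74e-05 and 6.19e-07). Among 22 metal ion carriers and related genes 6 were called higher and 5 lower, with Slc39a10, a zinc importer, 1.89-fold higher and Tfrc, the transferrin receptor, 1.45-fold lower (limma adjusted p = 3.11e-06 and 6.71e-05). Of 11 glucocorticoid response genes 2 were called higher and 3 lower, and Glul, glutamine synthetase, fell from 13.37, 13.33 and 13.08 to 12.35, 12.16 and 12.28 (1.99-fold, limma adjusted p = 9.5e-08). Arrestin genes that respond to glucose had 2 of 8 called higher and 2 lower, and Txnip, the best known of them, was not called (limma adjusted p = 0.0788). Aryl hydrocarbon receptor genes had 2 of 6 called each way, with Aldh3a1, a target of the receptor, 1.86-fold lower (limma adjusted p = 0.00302). The calls of Ahr and Arnt (higher) and Cyp1b1 (lower) were lost without the filter on dim probe sets (limma adjusted p = 0.0504, 0.0553 and 0.0563). On averaging its probe sets the change of Ahr was -0.29. Tubulins and kinesins had 4 of 47 called higher and 6 lower (21.3% called, against 28.2% of all genes tested). Tubb2a was 1.71-fold lower (limma adjusted p = 1.15e-05). Of 33 ribosome biogenesis genes 8 were called higher and 6 lower, with Gnl3, nucleostemin, 1.43-fold higher (limma adjusted p = 9.7e-05).

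Some of the largest changes lay outside the lists. Mreg, melanoregulin, which acts in organelle transport, rose from 6.61, 7.16 and 6.84 to 9.0, 8.88 and 9.20 (4.46-fold, limma adjusted p = 4.87e-06). Taf15, an RNA-binding protein, rose from 7.71, 8.71 and 8.30 to 10.35, 10.15 and 10.41 (4.17-fold, limma adjusted p = 8.36e-06). Gabpb1, a subunit of a transcription factor of mitochondrial genes, rose 2.81-fold (limma adjusted p = 2.18e-05), a change of 1.49 that was 0.97 on averaging its probe sets. None of these groups overlapped, although Taf15 spread over 1 log2 unit in DMSO.

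B3galt2, a galactosyltransferase, fell from 8.91, 8.37 and 8.50 to 5.11, 5.51 and 5.11, under the dim threshold, by at least 7.08-fold (limma adjusted p = 5.14e-09). Ankef1, an ankyrin-repeat protein, fell from 9.51, 10.01 and 9.56 to 7.29, 7.46 and 7.25 (5.13-fold, limma adjusted p = 1.18e-06), a change of -2.36 that was -1.27 on averaging its probe sets. Rasd1, a dexamethasone-induced RAS-like protein, fell from 9.65, 9.09 and 9.71 to 7.5, 7.58 and 7.16 (4.20-fold, limma adjusted p = 4.37e-08). All 3 fell by far more than the spread of their arrays. Aatk, a neuronal kinase, fell 4.64-fold, Ldb3, a Z-disc protein of muscle, 3.66-fold, Ear3, a ribonuclease, 3.27-fold, and Fbxo9, an F-box protein, 3.21-fold (limma adjusted p = 4.84e-06, 1.27e-06, 5.04e-09 and 1.38e-08).

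Lfng, a Notch-modifying enzyme, was called 3.55-fold lower (limma adjusted p = 0.0449) with 12 h arrays at 4.51, 6.71 and 6.37, and the call was lost without 12 h replicate 1 (0.22) and without each DMSO array in turn (0.075 to 0.115). The Lfng call was also lost without the intensity trend (0.142) and without moderation (0.188). Pi15, a protease inhibitor, fell 3.71-fold (limma adjusted p = 0.00962) with 12 h arrays at 4.13, 6.90 and 6.98, a call lost on averaging its probe sets (-0.71, limma adjusted p = 0.236), without the intensity trend (0.0608) and without moderation (0.0917). Without 12 h replicate 1 the change of Pi15 was -0.96 in place of -1.89. In both genes replicate 1 at 12 h was the dimmest. Sfpq, a paraspeckle protein outside the lists, fell from 11.81, 11.77 and 11.78 to 10.42, 10.25 and 10.20 (2.83-fold, limma adjusted p = 3.75e-09), a change of -1.50 that was -0.63 on averaging its probe sets.

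The 12 h arrays were also set directly against those at earlier times. Against 6 h, 690 genes (5.69%) were called, 304 higher (2.5%) and 386 lower (3.18%). Leaving out 12 h replicate 1, 2 or 3 gave 450, 435 or 410 genes, leaving out 6 h replicate 1 or 2 gave 443 or 376, and dropping limma's intensity trend gave 296. Against 3 h 2150 genes (17.7%) were called, 972 higher (8.01%) and 1178 lower (9.71%). These comparisons share the 12 h arrays with the one against DMSO, so they are not independent of it.

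Among stress genes, Ddit3 stood at means of 11.80 in DMSO, 12.63 at 3 h, 13.68 at 6 h and 14.21 at 12 h, and its difference between 12 h and 6 h was called (0.53, limma adjusted p = 7.14e-05). Atf4 had means of 13.80 at 6 h and 13.84 at 12 h, a difference that was not called (0.05, limma adjusted p = 0.769). Chac1 was lower at 12 h than at 6 h, with means of 10.94 and 11.29 (-0.35, limma adjusted p = 0.0209). The stress genes therefore had unlike courses between 6 h and 12 h.

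Hmox1 had means of 9.29 at 3 h, 10.07 at 6 h and 11.41 at 12 h, and Stbd1 7.32, 7.55 and 8.98. Their differences between 12 h and 6 h were 1.33 and 1.43 (limma adjusted p = 3.09e-06 and 8.31e-05). For Ero1a the means were 12.78 in DMSO, 12.48 at 3 h, 12.86 at 6 h and 13.97 at 12 h, and the 12 h mean was the highest by 1.11 over 6 h (limma adjusted p = 9.38e-06). Ankrd37 had means of 6.65 at 3 h, 6.80 at 6 h and 6.61 at 12 h, and its difference between 12 h and 6 h was not called (limma adjusted p = 0.721).

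Among lipid genes Pck1 had means of 10.06 in DMSO, 9.94 at 3 h, 9.16 at 6 h and 7.80 at 12 h, with a difference of -1.36 between 12 h and 6 h (limma adjusted p = 7.14e-05). Pnpla3 had means of 11.97, 11.84, 11.76 and 10.43 in the same order, with a difference of -1.33 between 12 h and 6 h (limma adjusted p = 2.94e-08). Elovl6 had means of 8.28 at 6 h and 9.02 at 12 h (0.74, limma adjusted p = 0.000947). Klf15 fell further between 6 h and 12 h (-0.41, limma adjusted p = 0.0246), whereas the difference for Irs2 was not called (-0.18, limma adjusted p = 0.589).

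Genes are represented by 1 probe set each, and other probe sets of a gene did not always move with it. Of 1011 genes with at least 2 called probe sets, 142 (14.0%) had called probe sets in opposite directions. Hspa4, a cytosolic chaperone, rose by 0.27 on the probe set used (limma adjusted p = 0.00395), while its 2 other probe sets were called lower (-0.80 and -1.39). For Sc5d another probe set was called lower than in DMSO (-0.40). Averaging a gene's probe sets moved 74 of 322 called named genes by over 1.5 times. Changes became smaller for Pfkl (-0.69), Acsl3 (0.60), Gclm (0.32), Igf1 (-0.52), Glul (-0.63), Slc39a10 (0.51), Tfrc (-0.32), Ndufb6 (-0.18) and Rps20 (-0.23), each still called. Changes became larger for Angptl4 (-1.82), Car3 (-1.60), Nrg4 (-1.51), Sqstm1 (1.59), Cers4 (-1.03), Hif1a (0.82) and Mdm2 (0.50), each still called in the same direction. Fabp4 was called lower by this average (-0.41, limma adjusted p = 0.0125), as was Dlk1 (-0.42, limma adjusted p = 0.0258). Transcripts that differ in their ends were not told apart here.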

How the data were processed

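RNA of 12 samples was measured on Affymetrix MOE430 2.0 arrays, 1 per sample, in 4 groups of 3. The deposited values are log2 signals made by the authors with MAS5, per the submitters' processing notes, whose version is not given in the sources used here. On each array the values have the same 2% trimmed mean, so differences are relative to the array's overall signal.

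Probe sets were named from the platform annotation: of 45101, 64 are controls, 34945 have 1 gene symbol, 932 several and 9160 none. A probe set was kept if at least 3 of the 12 arrays reached the median of all values (5.77). The brightest one stood for its gene, but probe sets with names ending in _x_at were used only where no other was kept (104 genes). A brighter _x_at probe set of a gene can therefore have been passed over. All 12 arrays were fitted together with limma 3.58.1 in R 4.3.3 (group means, moderated with an intensity trend), and Benjamini-Hochberg adjustment ran over all 12136 genes, with a call at an adjusted p under 0.05. Errors are SEs of the fit unless named otherwise. On simulated data with the same layout (12136 genes, 200 of them changed) the fit recovered 45.7% of changes of 0.5, 71.3% of 1 and 87.6% of 2 on the log2 scale. Far more genes, 3426, were called in the real comparison. The Benjamini-Hochberg cutoff depends on how many genes change, so these shares do not give the recovery in the real comparison. The tables were handled with Python 3.11.15 and pandas 2.3.3, and the plots with matplotlib 3.10.9.

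The gene lists were chosen with earlier results of these data known, while the arrays compared were taken by their labels. Genes named are the 15 largest called changes per direction with both means above the threshold and no overlap of arrays, up to 6 per direction by their bound, and in each list the first 3 members and up to 5 called ones. Predicted genes were left out. Chac1, Asns, Slc3a2, Slc7a5, Mthfd2, Nupr1, Ddit4, Tars, Oas1a, Pdk1, Slc2a4, Retn, Sfpq, Ier3, Maff and Irf9 were chosen after their values were seen. Promoter sequences are from RefSeq (GRCm38.p6). Alternatives covered normalization, filters, probe set choice, the model, leaving out each DMSO and 12 h array and, chosen after seeing the data, leaving out each 6 h or 3 h array in the comparison with that time.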

Additional observations from a re-analysis of the deposited data

Results flagged for a closer look

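Some genes differed between 12 h and 6 h of berberine in the direct limma comparison by at least 1 on the log2 scale. Among those higher at 12 h, the difference was 1.33 for Hmox1, 1.62 for Mreg, 1.43 for Stbd1 and 1.11 for Ero1a. Among those lower at 12 h, it was -1.47 for Ankef1, -1.36 for Pck1, -1.01 for Ldb3 and -1.33 for Pnpla3. For Hcar1, B3galt2, Spon2 and Rgr it was -1.06, -2.37, -1.89 and -3.04, and their means at 12 h were under the dim threshold, so these sizes are not bounds.

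Abcc4, an exporter of cyclic nucleotides, Ier3, a stress-inducible survival gene, and Maff, a small MAF transcription factor, were called lower than DMSO at 6 h and higher at 12 h. Their differences between 12 h and 6 h were 0.91, 0.71 and 0.87 on the log2 scale. The 12 h call of Ier3 against DMSO was lost without DMSO replicate 2 or 3 (limma adjusted p = 0.0506 and 0.107), without 12 h replicate 2 (0.1), without the intensity trend (0.0526) and without moderation (0.0641). That of Maff was lost without DMSO replicate 3 (limma adjusted p = 0.09) and without 12 h replicate 1 (0.0849).

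Probe sets without a single gene symbol enter none of the comparisons above. Of 3347 that were kept, 536 (16%) were called at 12 h against DMSO, 278 higher and 258 lower, and 99 of them changed by at least 1 on the log2 scale. Over all 25053 kept probe sets the share called was 23.3%. The unnamed ones were not matched to genes here.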

How the results depend on the processing

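Of 322 called genes that could be named, 226 kept their direction and call under every alternative tried on single genes, 96 lost the call or reversed under at least 1, and 8 of these reversed. Testing all 25053 kept probe sets singly called 5847 (2884 higher and 2963 lower) at 12 h against DMSO and 3430 against 3 h, over more features. The comparison of 12 h with 6 h gave 690 genes, 296 without the intensity trend and 384 in a model without moderation. Leaving out 1 DMSO or 12 h array at a time, or 1 array of the earlier time compared (an alternative chosen after seeing the data), gave 376 to 754 genes against 6 h and 1599 to 2225 against 3 h. Leaving out 1 DMSO or 12 h array gave 2683 to 3098 against DMSO (1311 to 1526 higher and 1372 to 1582 lower). Averaging a gene's probe sets moved 74 of the 322 values by over 1.5 times. All reversals came from it, with -0.64 for Hspa4, -0.10 for Esrra, -0.0247 for Vldlr, -0.0464 for Map1lc3b, -0.29 for Ahr, 0.0085 for Rrp1b, -0.0325 for Psmc6 and -0.0538 for Psmc2. The replicate numbers did not pair the samples, since deviations of same-numbered arrays correlated at -0.04 to 0.03, and the fit with the replicate number as a block called 3398 genes. Signals near the dim threshold limit what falls can be sized. Quantile normalization bears on the brightness of DMSO replicates 1 and 2, and under it 8 cytosolic ribosomal proteins in place of 28 were called higher. No alternative addresses the DMSO duration or whether the replicates are separate cultures.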
